A study of Arabidopsis thaliana with 4 samples.

Results

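The genes described here are the 8 loci of *Arabidopsis thaliana* that encode the main enzymes of brassinosteroid synthesis and the enzyme that inactivates these hormones, among the 27206 loci of the deposited tables. They were chosen by function through their locus identifiers, with earlier results of these data known. They are *DWF1* (AT3G19820), *DET2* (AT2G38050), *DWF4* (AT3G50660), *CPD* (AT5G05690), *ROT3* (AT4G36380), *BR6ox1* (AT5G38970), *BR6ox2* (AT3G30180) and *BAS1* (AT2G26710). RNA-Seq compared wild-type plants of the ecotype Columbia with the *stk* mutant, labelled *stk*-/-, in inflorescences and siliques collected up to 5 days after pollination (DAP), with 2 biological replicates of each genotype and 4 libraries in all. *STK* (*SEEDSTICK*) is a MADS-box gene known for its part in ovule identity and seed abscission. The study worked with a single insertion allele, *stk-2*. Plants of both genotypes were grown under short-day or long-day conditions, without a statement of which library came from which.

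Brassinosteroids are plant steroid hormones that promote cell elongation, and mutants that cannot make them are dwarfed and often poorly fertile. They are made from campesterol by a steroid reductase and a chain of cytochrome P450 enzymes, ending in castasterone and brassinolide. The hormone is perceived at the cell surface by the receptor kinase BRI1, and the transcription factors BZR1 and BES1, which act at the end of the signalling chain, lower the transcription of several synthesis genes when the hormone is abundant. In flowers and fruits the pathway is known for its part in pollen and ovule development and in seed size.

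Values are RPKM, reads divided by exon length and library size, summed over the gene models of a locus. The steps between low RPKM values gave library sizes between 16965995 and 33673020 reads, and both *stk* libraries were deeper than both wild-type libraries. *STK* was examined first, at 38.7 and 40.9 RPKM in the wild-type libraries against 7.91 and 7.96 RPKM in the mutant (log2 fold change -2.19, standard error 0.13, Benjamini-Hochberg adjusted p = 0.088 in limma). By the file headers *stk* replicate 1 carries sequencing lane number 7 and the other 3 libraries lane number 1. Values without *stk* replicate 1 are called values within lane 1 below and rest on 1 *stk* library. Whether lane number 1 meant the same run for these 3 libraries was not examined. Summed markers of pollen, petal and stamen, carpel and ovule, and tapetum overlapped between the genotypes. Those of pollen barely did, at 509.15 to 571 RPKM in wild type and 446 to 509.19 RPKM in *stk*. Those of petal and stamen had 198 to 214 RPKM in wild type and 155 to 202 RPKM in *stk*. Those of tapetum had 136 to 173 RPKM in wild type and 90.9 to 177 RPKM in *stk*. Of the pollen, petal and stamen, and carpel and ovule markers, 2 of 4, 1 of 2 and 2 of 4 were lower in both *stk* libraries. Of all loci tested, 26.8% were lower in both *stk* libraries and 16.3% were higher in both. Of the 4 tapetum markers, 3 (*A7*, *AMS* and *MS1*) were lower in both *stk* libraries than in both wild-type libraries, while *A9* had 75.3 RPKM in *stk* replicate 1 and between 18.4 and 30.8 RPKM elsewhere. *AMS*, a transcription factor of the tapetum, had 33.7 and 24.1 RPKM in wild type, compared with 17.8 and 14.7 RPKM in *stk* (log2 fold change -0.78, Benjamini-Hochberg adjusted p = 0.50 in limma). The 4 endosperm markers summed to between 2.44 and 5.04 RPKM in wild type and between 6.84 and 7.02 in *stk*; only *AGL62* and *PHE1* were apart between the genotypes, and *IKU2* was listed at 0 in 1 library of each. The 3 embryo markers summed to between 2.07 and 2.19 RPKM in wild type and between 0.944 and 1.22 in *stk*, with *LEC1* and *FUS3* apart and *WOX2* overlapping. No endosperm or embryo marker had more than 142 reads in a library (*PHE1*, *stk* replicate 2). *LEC1* had 16 and 13 reads in wild type and 2 and 11 in *stk*. Both root markers, *EXPA7* and *EXPA18*, were listed at 0 in all libraries. In whole inflorescences and siliques, fewer cells of a type and less RNA per cell cannot be told apart, and the part of these differences in the results was not tested.

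The 8 loci were distinct in sequence at the length of a read. For each locus every 50-base window within an exon of its most abundant gene model was aligned to the genome, and none of the 8 had a window that matched a second place with up to 2 mismatches, the number that the authors allowed. The closest pair in sequence is *BR6ox1* and *BR6ox2*, whose spliced models were 82.6% identical over 1418 aligned bases. Their most similar windows are shown because they decide whether reads of these paralogs can be separated. They differ at 3 of 50 bases, in capitals, both lie in coding exons, and the one of *BR6ox1* is in exon 5 of 8 at chr5:15596021-15596070 (minus strand) and the one of *BR6ox2* in exon 6 of 9 at chr3:11812640-11812689 (plus strand) of the reference TAIR10.1.
*BR6ox1* window: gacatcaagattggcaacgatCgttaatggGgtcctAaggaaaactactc
*BR6ox2* window: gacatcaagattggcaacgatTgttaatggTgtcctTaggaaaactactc

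The 8 loci spanned a wide range of RPKM levels. In wild type the order of mean levels was *DWF1*, *CPD*, *BR6ox2*, *DET2*, *DWF4*, *ROT3*, *BAS1* and *BR6ox1*, from 324 RPKM down to 2.92 RPKM. Libraries overlapped between *BR6ox2* and *DET2* and between *DET2* and *DWF4*, whereas all other neighbours in that order were apart. In *stk* the order was *DWF1*, *CPD*, *DWF4*, *DET2*, *ROT3*, *BR6ox2*, *BAS1* and *BR6ox1*, so that *BR6ox2* moved from place 3 to place 6, and libraries overlapped between *DWF4* and *DET2* and between *DET2* and *ROT3*. *DWF1* alone made up between 70.8% and 76.4% of the summed RPKM of the 8 loci. Without it, the 7 remaining loci summed to 113 and 107 RPKM in wild type, compared with 112 and 106 RPKM in *stk*, with no separation of the genotypes.

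**Figure D1:**
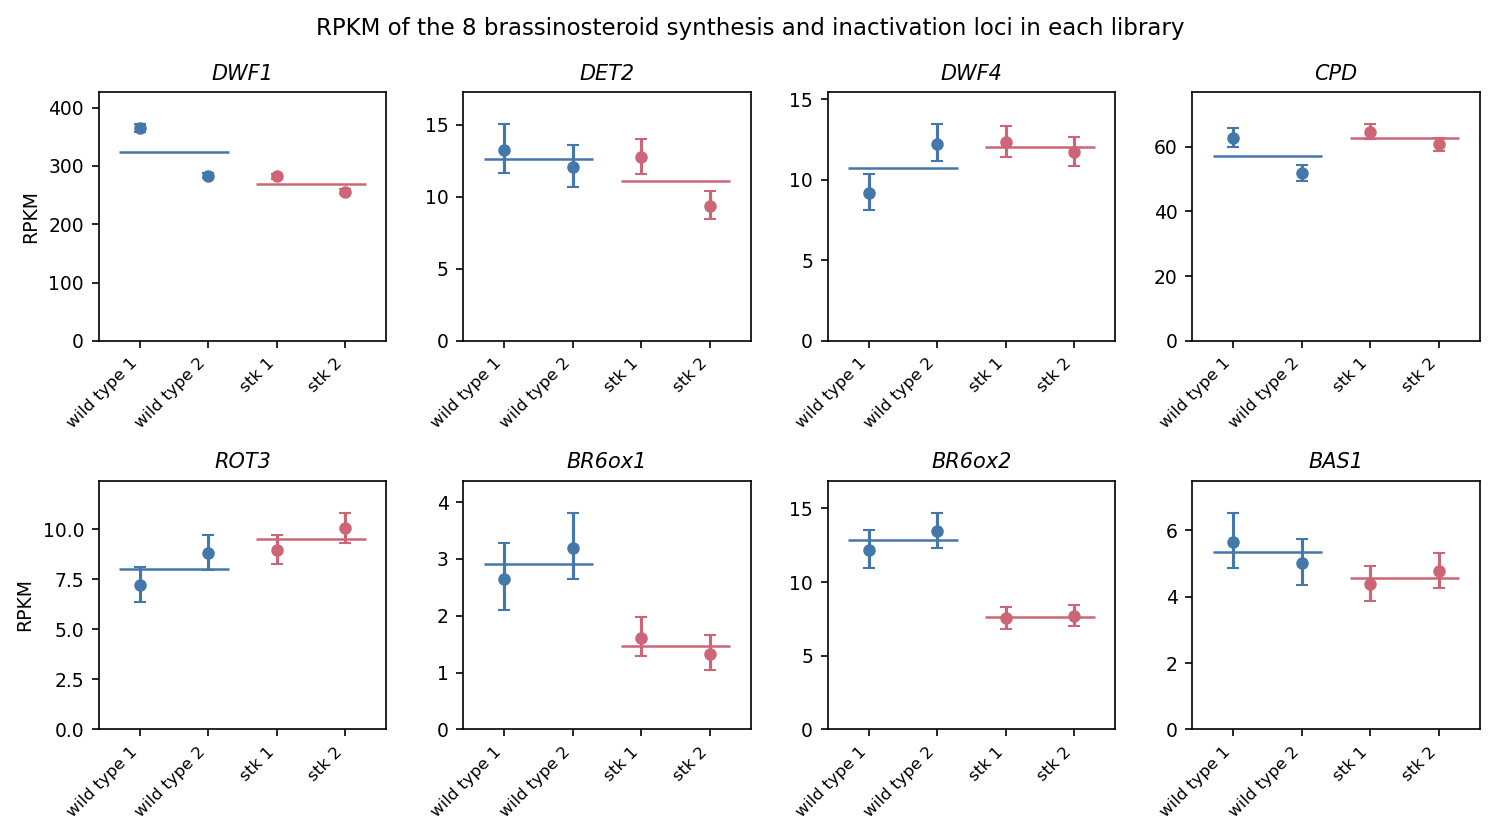
RPKM (y axis, from 0) of each of the 8 loci in the 4 libraries (x axis), with points for single libraries, bars for the exact 95% Poisson interval of the reads behind each value and horizontal lines for the mean of each genotype. *BR6ox1* and *BR6ox2* show both *stk* points (1.33 to 1.61 and 7.56 to 7.71 RPKM) well under both wild-type points. In the other panels the genotypes overlap or their nearest points lie close together. In that of *DWF1*, wild-type replicate 1 stands apart at 365 RPKM.

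The comparison of *stk* with wild type asked which of these genes differed in transcript level when *STK* was mutated. The 2 genes of the last oxidation step, *BR6ox1* and *BR6ox2*, were lower in both *stk* libraries than in both wild-type libraries, by a factor of 1.98 and 1.68, while the genes of the earlier steps and the inactivating enzyme differed by at most 1.203-fold in mean RPKM. With limma on log2(RPKM + 1), 0 of the 8 loci had an adjusted p under 0.05, as was the case for 0% of the 19044 loci tested. At an unadjusted p of at most 0.05, 2 of the 8 loci were lower in *stk* and 0 were higher, beside 3.53% and 5.66% of all loci tested and 9.18% in either direction. With Baggerley's weighted test, the test that the study names, 1 of the 8 had an unadjusted p of at most 0.05, *DWF1*, beside 2.42% of all loci, and 0 an adjusted one under 0.05, which 67 of all loci (0.352%) had. By this test the unadjusted p was 0.30 for *BR6ox1* and 0.079 for *BR6ox2*. The distribution that the study's software used for this test is not given, so these values rest on the normal distribution chosen here. The test was run on RPKM in place of reads, with the summed RPKM of a library as its total. The least variance it allows was thus set by RPKM, which weighs most on loci of low RPKM. *BR6ox1*, at 1.33 to 3.19 RPKM, had 80 to 120 reads in a library. The test was not run on reads. The study's thresholds, an unadjusted p of at most 0.05 and means at least 2-fold apart, held for 0 of the 8 loci with either test, for 3.42% of all loci with limma's p and for 0.546% with Baggerley's. The median log2 fold change of the 8 loci was -0.19 and that of all loci tested was -0.05. With 2 libraries against 2, an exact permutation test of a single locus cannot go below p = 0.333.

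**Figure D2:**
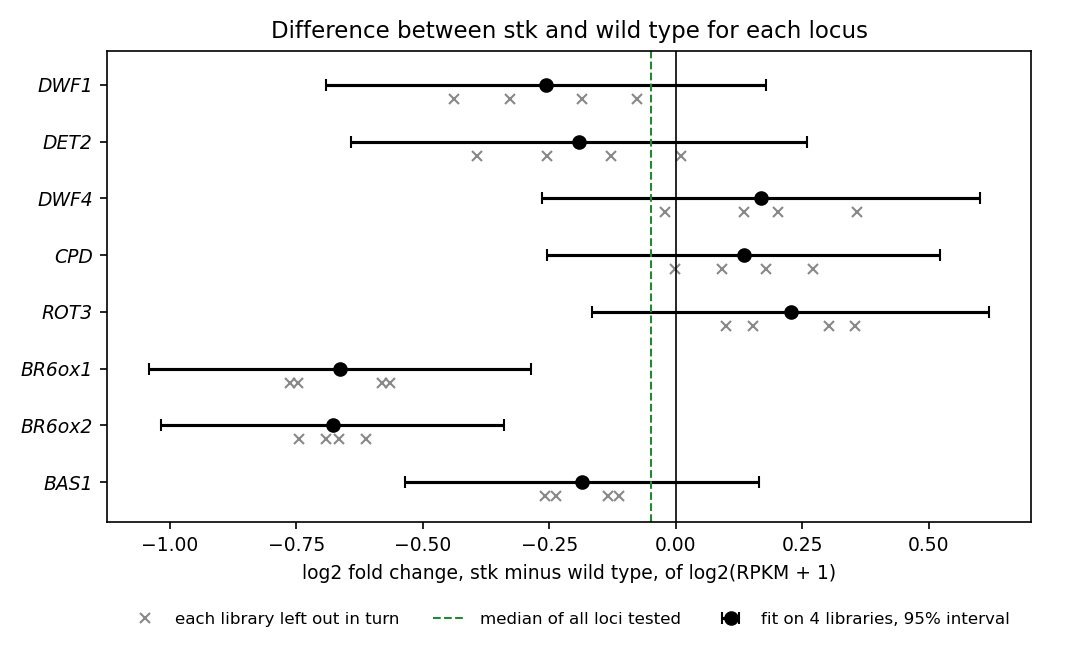
Log2 fold change of *stk* minus wild type on the log2(RPKM + 1) scale (x axis) for each of the 8 loci (y axis), with points and bars for the limma estimate and its 95% interval, crosses for the estimate with each library left out in turn and a dashed line at the median of all loci tested, -0.05. The intervals of *BR6ox1* and *BR6ox2* lie below 0, between -1.04 and -0.29, and the other 6 intervals include 0.

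*BR6ox2* (chromosome 3, 11810737 to 11813765 of TAIR10, plus strand, 9 exons) encodes CYP85A2, the P450 that makes castasterone and converts it to brassinolide. It had 12.2 and 13.5 RPKM in wild type, from 369 and 506 reads, and 7.56 and 7.71 RPKM in *stk*, from 412 and 463 reads. The 2 libraries of each genotype lay close together, and the lowest wild-type value exceeded the highest *stk* value by more than the distance between replicates. The 95% Poisson intervals of the reads, which cover counting error only, reached from 10.98 to 14.7 RPKM in wild type and from 6.84 to 8.44 RPKM in *stk*, and did not meet. The mean was 12.8 ± 0.896 (SD, n = 2) RPKM in wild type and 7.63 ± 0.107 (SD, n = 2) RPKM in *stk*. The log2 fold change was -0.68 (standard error 0.14, 95% interval -1.02 to -0.34). Its Benjamini-Hochberg adjusted p in limma was 0.41. Within lane 1 the log2 fold change was -0.67.

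*BR6ox1* (chromosome 5, 15594674 to 15597885, minus strand) encodes CYP85A1, which makes castasterone but not brassinolide. It was the least abundant of the 8 loci, with 2.65 and 3.19 RPKM in wild type, from 82 and 120 reads, and 1.61 and 1.33 RPKM in *stk*, from 90 and 80 reads. Both *stk* libraries lay below both wild-type libraries, and the intervals of the reads, 2.10 to 3.81 RPKM in wild type and 1.05 to 1.98 RPKM in *stk*, did not meet. Means were 2.92 ± 0.381 (SD, n = 2) RPKM and 1.47 ± 0.200 (SD, n = 2) RPKM. The log2 fold change was -0.66 (standard error 0.15, 95% interval -1.04 to -0.29). Its Benjamini-Hochberg adjusted p in limma was 0.45. At this level the added 1 RPKM shortens the log2 difference, which was -0.94 with a pseudocount of 0.1 RPKM. The ratio of means, 1.98, stood just under the 2-fold limit of the study, and it passed that limit when wild-type replicate 1 or *stk* replicate 1 was left out. Within lane 1 the log2 fold change was -0.75.

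*BR6ox1* and *BR6ox2* had similar profiles over the libraries. The share of *BR6ox1* in the RPKM of both oxidases was 17.8% and 19.1% in wild type, compared with 17.6% and 14.7% in *stk*. Their sum was 14.8 and 16.6 RPKM in wild type, compared with 9.17 and 9.04 RPKM in *stk*. Among the 57 other loci of the brassinosteroid lists that were tested, each was the other's nearest profile, with a Euclidean distance of 0.144 between centred log2(RPKM + 1) values over 4 libraries, and *BEE3* was the next for both. The tapetum markers *A7*, *AMS* and *MS1* were lower in both *stk* libraries too, with log2 fold changes of -0.49, -0.78 and -0.16. The tapetum marker *A9* overlapped between the genotypes, with a log2 fold change of 0.45, and so did the summed tapetum markers. The summed markers of endosperm and embryo, which rest on few reads, were without overlap between the genotypes. The part of these markers' tissues in the values of the oxidases was not tested.

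Because both oxidase genes stood lower in *stk*, the 250 bases before their start in the reference annotation are shown, read 5′ to 3′ on the strand of the gene, from chr5:15598090-15598339 (minus strand) and chr3:11810476-11810725 (plus strand) of TAIR10.1.
*BR6ox1* upstream: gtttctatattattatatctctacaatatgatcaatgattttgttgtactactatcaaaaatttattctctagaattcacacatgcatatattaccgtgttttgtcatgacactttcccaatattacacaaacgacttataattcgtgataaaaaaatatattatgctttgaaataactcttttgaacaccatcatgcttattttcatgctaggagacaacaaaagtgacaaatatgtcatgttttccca
*BR6ox2* upstream: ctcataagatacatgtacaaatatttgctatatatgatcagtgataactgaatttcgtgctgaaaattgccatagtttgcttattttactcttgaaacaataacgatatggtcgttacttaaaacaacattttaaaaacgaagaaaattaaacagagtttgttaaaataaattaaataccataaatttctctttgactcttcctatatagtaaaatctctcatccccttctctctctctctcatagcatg

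Windows of this kind were searched on both strands for the brassinosteroid response elements CGTGTG and CGTGCG and for the G-box CACGTG, which can share bases. They were also searched for the CArG box of MADS-domain proteins, as CCWWWWWWGG with W for A or T and without mismatch. The study allowed 1 mismatch in a CArG box and searched a longer region. Boxes by its rule were not counted here, so these results do not say whether the genes hold them. The windows end at the gene start of the reference annotation, which for *CPD*, *DWF4*, *ROT3* and *BR6ox1* lies well upstream of the deposited model. For *CPD* the window begins at 1706949 and the deposited model ends at 1706787, and for *BR6ox1* these are 15598090 and 15597885. The bases between were not searched. None of the 8 genes held an exact match to any of these elements or boxes in its 250 bases. There 6.73% of 26718 genes held a response element of either form, 6.58% a G-box and 2.55% a CArG box. Over 1000 bases, not ended at neighbouring genes, 3 of the 8 genes held 1 match each. These 3 sites are shown with 30 bases each on the strand of the gene, with the match in capitals, and all of them lie outside annotated genes. In *ROT3* the element CGTGTG, present before 17.3% of genes, stood 413 to 408 bases before the start at chr4:17192903-17192932. In *DWF4* the element CGTGCG, present before 5.11% of genes, stood 458 to 453 bases before the start at chr3:18817846-18817875, as its reverse complement. In *BR6ox1* a CArG box, present before 7.28% of genes, stood 994 to 985 bases before the start at chr5:15599060-15599089.
*ROT3* site: caacttaattacCGTGTGatacagtcaatg
*DWF4* site: tctgtctttgacCGCACGctcgtgtagggg
*BR6ox1* site: tttataCCTTTTTAGGattttataaattca

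The enzymes that supply and open the pathway did not pass the unadjusted threshold with limma. *DWF1* (chromosome 3, 6879617 to 6882315, minus strand) encodes the sterol side-chain reductase that yields campesterol. It had wild-type values of 365 and 284 RPKM, against 283 and 256 RPKM in the mutant. Both *stk* values were the lower ones, but wild-type replicate 2 and *stk* replicate 1 were nearly equal, and the distance between the wild-type replicates exceeded that between these neighbours. The log2 fold change was -0.26 (95% interval -0.69 to 0.18, Benjamini-Hochberg adjusted p = 0.68 in limma), -0.08 without wild-type replicate 1 and -0.44 without wild-type replicate 2. By Baggerley's test its unadjusted p was under 0.05, as stated above. *DET2* (chromosome 2, 15921136 to 15922313, minus strand) encodes the steroid reductase that acts on the precursors. It had wild-type values of 13.3 and 12.1 RPKM, against 12.8 and 9.40 RPKM in the mutant. Only *stk* replicate 2 stood apart, below the other 3 libraries, and the log2 fold change of -0.19 (95% interval -0.64 to 0.26) became 0.01 without it.

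The P450 genes of the middle steps had higher means in *stk*, none past the unadjusted threshold with either test. *DWF4* (chromosome 3, 18814140 to 18817244, minus strand) encodes CYP90B1, the side-chain hydroxylase often described as the rate-limiting enzyme of the pathway. It had wild-type values of 9.18 and 12.2 RPKM, against 12.4 and 11.7 RPKM in the mutant. Wild-type replicate 1 was the low library and the other 3 lay together. Its log2 fold change was 0.17 (95% interval -0.27 to 0.60), and -0.02 without wild-type replicate 1. *CPD* (chromosome 5, 1702688 to 1706787, minus strand) encodes CYP90A1, whose loss gives a strong dwarf. It had wild-type values of 62.8 and 51.8 RPKM, against 64.6 and 60.8 RPKM in the mutant, with wild-type replicate 2 as the low library and a log2 fold change of 0.13 (95% interval -0.25 to 0.52), or -0.0021 without that library. *ROT3* (chromosome 4, 17187528 to 17192317, minus strand) encodes CYP90C1, a side-chain hydroxylase that shares its task with CYP90D1. It had wild-type values of 7.21 and 8.80 RPKM, against 8.96 and 10.06 RPKM in the mutant. Both *stk* libraries were higher, though *stk* replicate 1 exceeded wild-type replicate 2 by less than the replicates of either genotype differed. The log2 fold change was 0.23 (95% interval -0.17 to 0.62, Benjamini-Hochberg adjusted p = 0.69 in limma), between 0.10 (without wild-type replicate 1) and 0.36 (without wild-type replicate 2) when a library was left out. The intervals of *DWF4*, *CPD* and *ROT3* all end above the estimate of *BR6ox2*, -0.68.

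*BAS1* (chromosome 2, 11380492 to 11383612, plus strand) encodes CYP734A1, which hydroxylates castasterone and brassinolide and so inactivates them. It had 5.65 and 5.01 RPKM in wild type, from 189 and 208 reads, and 4.37 and 4.76 RPKM in *stk*, from 263 and 316 reads. Both *stk* libraries were below both wild-type libraries by less than the distance between the replicates of wild type. The log2 fold change was -0.19 (95% interval -0.54 to 0.17, Benjamini-Hochberg adjusted p = 0.72 in limma), between -0.26 (without wild-type replicate 2) and -0.11 (without wild-type replicate 1) when a library was left out. The RPKM of *BR6ox2* was 2.16 and 2.69 times that of *BAS1* in wild type and 1.73 and 1.62 times in *stk*. Relative to *DWF4* the ratio was 1.33 and 1.10 in wild type, compared with 0.612 and 0.656 in *stk*.

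Counting only whether the genotypes overlapped, 4 of the 8 loci had both *stk* libraries below both wild-type libraries (*DWF1*, *BR6ox1*, *BR6ox2* and *BAS1*), and 1 had both above (*ROT3*). The same was seen for 26.8% and 16.3% of all loci tested.

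The nearest profiles of the other members within the brassinosteroid lists, again by Euclidean distance over 4 libraries and 57 loci, were *SMO1-1* for *DWF1* (0.084), *KDR* for *DET2* (0.058), *ROT3* for *DWF4* (0.187), *FK* for *CPD* (0.072), *UGT73C6* for *ROT3* (0.164) and *BEH2* for *BAS1* (0.101). Small distances arise here also between genes that hardly vary.

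Of the 8 loci, 3 have more than 1 gene model. In *CPD* and *BR6ox1* the division of RPKM among models differed between libraries without following the genotype. For *CPD*, model 2 held 96.8% of the locus in wild-type replicate 1 and *stk* replicate 2, and 73.7% and 63.1% in wild-type replicate 2 and *stk* replicate 1, where model 3 held 26.3% and 36.9%. For *BR6ox1*, model 2 held 98.7% and 100% in replicate 1 of wild type and *stk*, whereas in replicate 2 of both the 3 models held between 30.3% and 37.9% each. With the most abundant model in place of the sum, *BR6ox1* had a log2 fold change of -0.48 and no longer an unadjusted p of at most 0.05. For *DWF1*, model 2 held between 95.7% and 98.3% in every library. Its minor model 1 was apart between the genotypes. That model held 0.408% and 0.517% in wild type, from 49 and 60 reads, and 1.68% and 1.42% in *stk*, from 281 and 237 reads. The other members have 1 model each, with at most 9 exons.

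**Figure D3:**
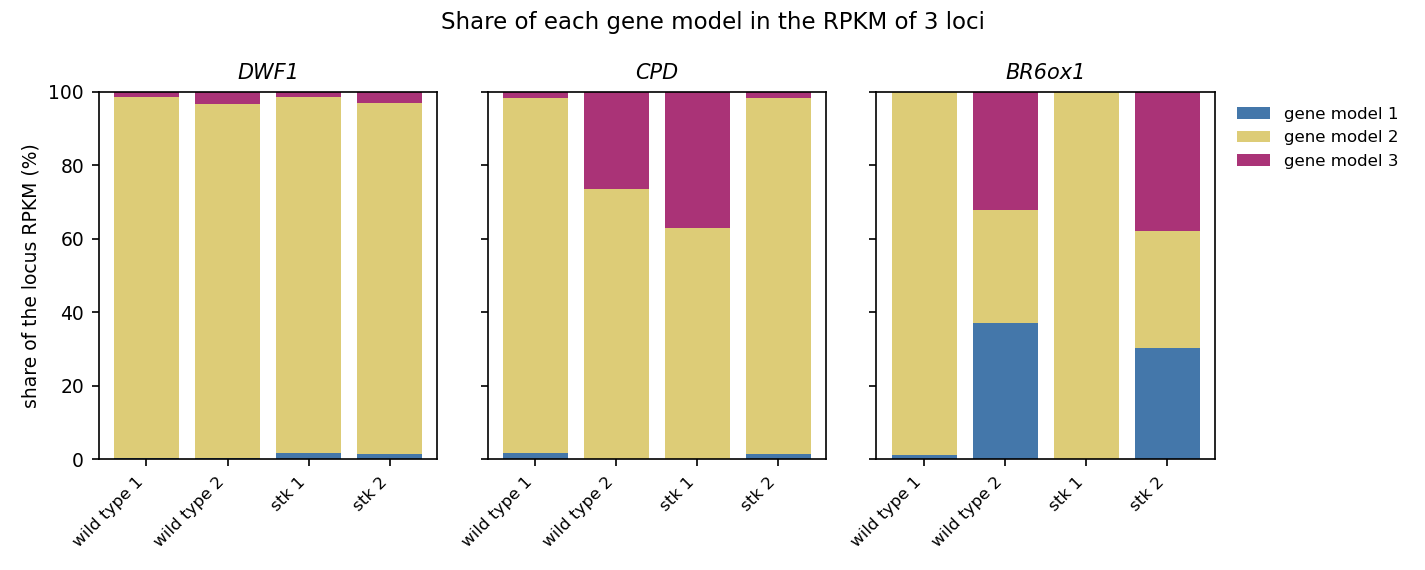
Share of each gene model (colours) in the summed RPKM of *DWF1*, *CPD* and *BR6ox1*, in percent (y axis), for each library (x axis). *CPD* divides between models 2 and 3 in wild-type replicate 2 and *stk* replicate 1, and *BR6ox1* among 3 models in replicate 2 of both genotypes.

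In 2 of the 8 loci the deposited model overlaps a gene on the other strand, and the sources do not say that strand was used in counting. *DET2* shares 35 bases, or 3.20% of its exon length, with AT2G38040, the gene *CAC3* of a chloroplast carboxylase subunit, which had a mean of 85.3 RPKM in wild type against 72.3 RPKM in *stk*. Reads of these bases cannot be told apart. *ROT3* shares 83 bases with AT4G36370, which was listed at 0 in all libraries.

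Other genes of the pathway and of its signalling were followed through 5 lists of 52 loci, 50 of which were tested. In these lists 0 loci had an adjusted p under 0.05 from limma. At an unadjusted p of at most 0.05, 3 of the 50 were higher and 1 lower in *stk*, beside 5.66% and 3.53% of all loci tested. Each of these loci passed the filter of 1 RPKM through the genotype where it was higher, as described below. The median log2 fold change of the lists was -0.06. Among 12 genes of sterol precursor synthesis, 0 passed the unadjusted threshold, with a median of -0.07. The largest difference there was that of *SMT3*, a sterol methyltransferase, which had wild-type values of 39.2 and 34.7 RPKM, against 34.7 and 27.9 RPKM in the mutant (log2 fold change -0.24). Among 19 tested genes of signalling, from the receptor *BRI1* to *BZR1* and *BES1*, 0 passed it either, with a median of -0.08. The largest difference was that of *SERK1*, a co-receptor kinase, which had wild-type values of 13.7 and 13.3 RPKM, against 10.5 and 11.9 RPKM in the mutant (log2 fold change -0.25).

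Of the 7 other genes of synthesis and inactivation, 6 were tested, with a median log2 fold change of 0.15, and 1 passed the unadjusted threshold. This was *BIA1*, an acyltransferase linked to brassinosteroid inactivation, with 0.494 and 0.918 RPKM in wild type, from 13 and 30 reads, and 1.60 and 1.704 RPKM in *stk*, from 76 and 89 reads. Both *stk* libraries were above both wild-type libraries (log2 fold change 0.65, Benjamini-Hochberg adjusted p = 0.50 in limma). *CYP90D1*, the partner of *ROT3*, had wild-type values of 3.14 and 3.47 RPKM, against 3.91 and 4.95 RPKM in the mutant, without passing the threshold.

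Of 11 genes known to respond to brassinosteroids, all tested, 1 was higher and 1 lower at the unadjusted threshold, and their median was -0.04. *BEE3*, a bHLH factor induced early by the hormone, had wild-type values of 1.73 and 2.72 RPKM, against 0.970 and 0.908 RPKM in the mutant. Both *stk* libraries were below both wild-type libraries (log2 fold change -0.72, Benjamini-Hochberg adjusted p = 0.50 in limma). *SAUR15*, a small auxin-induced gene that brassinosteroids also induce, had 0.116 and 0.372 RPKM in wild type, from 1 and 4 reads, and 3.02 and 0.873 RPKM in *stk*, from 47 and 15 reads. The *stk* replicates differed from each other more than the lower of them differed from wild type. Per library read, the ratio of *stk* to wild type was 7.34, with an exact 95% interval of 2.98 to 23.4 that covers counting error only. Its log2 fold change of 1.148 no longer passed the unadjusted threshold without wild-type replicate 1 (0.999) or wild-type replicate 2 (1.298), and was 0.49, still past it, with the exon length trend of each library removed. Of the 2 regulators of synthesis genes, *TCP1*, a factor that promotes *DWF4* transcription, had wild-type values of 0.541 and 0.908 RPKM, against 1.27 and 1.32 RPKM in the mutant (log2 fold change 0.42, Benjamini-Hochberg adjusted p = 0.53 in limma), which was 0.27 and not past the unadjusted threshold without wild-type replicate 1. *CES*, a bHLH factor that promotes *CPD* transcription, had wild-type values of 8.88 and 9.66 RPKM, against 7.71 and 6.34 RPKM in the mutant, without passing the unadjusted threshold. *BIA1*, *SAUR15* and *TCP1* had wild-type means under 1 RPKM and passed the filter of 1 RPKM on the mean level through their *stk* values. *BEE3* passed it through its wild-type values. Without *stk* replicate 1, *SAUR15* and *TCP1* fell under that filter, so no value within lane 1 was fitted for them. *TCP1* fell under it without *stk* replicate 2 as well. Of the 50-base windows of *BEE3*, 2.17% also matched its paralog *BEE1*.

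**Figure D4:**
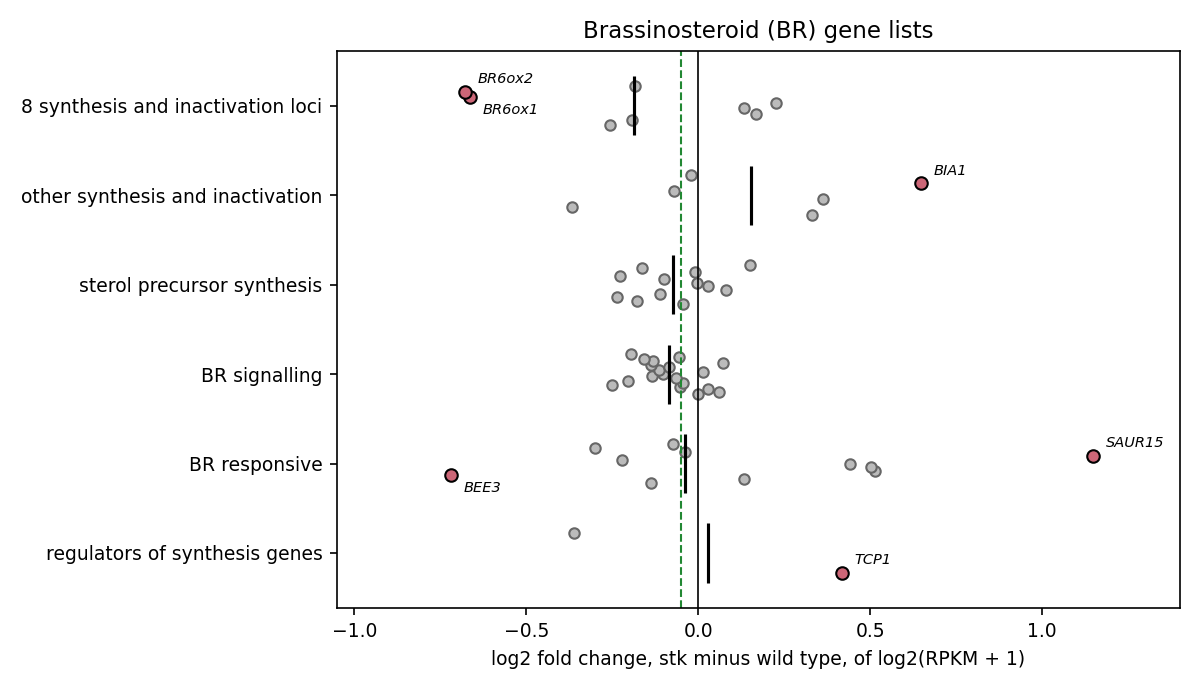
Log2 fold change of *stk* minus wild type on the log2(RPKM + 1) scale (x axis) for every tested locus of the 8 genes and of the 5 other brassinosteroid lists (y axis). Red points with names have an unadjusted limma p of at most 0.05, grey points do not, black bars mark the median of each list and the dashed line the median of all loci tested. *BR6ox1*, *BR6ox2* and *BEE3* lie below -0.6, and signalling and sterol genes lie within 0.3 of 0.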

How the data were processed

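RNA of 2 wild-type and 2 *stk* samples was sequenced by the authors as 50 bp single reads. They mapped the reads to TAIR10 with CLC Genomics Workbench, with at most 2 mismatches, shared reads that fit several places in proportion to unique reads, and deposited RPKM per gene model. FastQC is named in the submitters' processing notes. The authors also deposited tables of enriched GO terms, their own results, which were not used. The members and lists were chosen with earlier results of these data known.

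RPKM of the gene models was summed per locus, and log2(RPKM + 1) was compared with limma 3.58.1 (R 4.3.3) for the 19044 loci with a mean of at least 1 RPKM, with Benjamini-Hochberg adjustment over all of them. A fold change on this scale understates the change of weakly expressed genes. Library sizes were recovered from RPKM steps at 4980 genes. With these sizes between 98.5% and 98.8% of low values were whole reads, with a tolerance of 0.05, and reads of the members follow from them. For model 3 of *DWF1* the exon length was taken as the 1 that gives whole reads. Baggerley's weighted test was rewritten and run on RPKM in place of reads, with the summed RPKM of a library as its total. The distribution that the authors' software used for it is not given in the sources used here, and the normal distribution was chosen on simulated data. Chromosome coordinates of TAIR10 and of the reference TAIR10.1 are shared. Windows of 50 bases were aligned with BWA 0.7.19. Sequences come from TAIR10.1, and other steps used Python 3.11.15, pandas 2.3.3, scipy 1.17.1 and Biopython 1.88.

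Named were the 8 members, *STK*, each locus of the other lists with an unadjusted p of at most 0.05 or the largest difference of its list, and the nearest profile of each member. *CYP90D1* and *CES* were named after their values were seen. Alternatives covered the pseudocount, the filter, the scaling, the gene model, the test, blocking by replicate and the removal of single libraries. The crossed block was added after seeing the data.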

Additional observations from a re-analysis of the deposited data

How the results depend on the processing

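In 14 alternatives each, *BR6ox1* and *BR6ox2* were lower in *stk* every time, with limma's unadjusted p no higher than 0.05 in 13 and 14 of them and an adjusted one under 0.05 in 0. When single libraries were left out, log2 fold changes ranged from -0.74 to -0.61 for *BR6ox2* and from -0.76 to -0.56 for *BR6ox1*. It crossed 0 for *DET2* (-0.39 to 0.0103, the latter without *stk* replicate 2), *DWF4* (-0.0219 without wild-type replicate 1, to 0.36) and *CPD* (-0.0021 without wild-type replicate 2, to 0.27), and the median of the 8 loci ranged from -0.26 to -0.09. Of the 8 loci, 1 passed the unadjusted threshold of 0.05 with the most abundant gene model (*BR6ox2*) or with Baggerley's test (*DWF1*), and between 0 and 1 met the study's criteria with a library left out. *BR6ox1* rests on at most 120 reads in a library. The 14 alternatives include the crossed block, added after seeing the data, but not Baggerley's test. By Baggerley's test, run on RPKM in place of reads, the unadjusted p was 0.30 for *BR6ox1* and 0.079 for *BR6ox2*.

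Over all loci, the number with an adjusted p under 0.05 was 0 in the fit reported, 5 with quantile normalization, 5 with a common median, 4 with the exon length trend removed, 1 with limma's trend and 67 with Baggerley's test, by which 461 passed unadjusted and 104 met the criteria. With a library left out it was 0 to 1570, with 324 without *stk* replicate 1 and 1570 without *stk* replicate 2. The unadjusted count was then 733 to 2735, beside 1749, lowest without wild-type replicate 1 and highest without *stk* replicate 2. The count meeting the criteria was 292 to 1329, beside 652, with 292 without wild-type replicate 1, 434 without *stk* replicate 1 and 1329 without *stk* replicate 2. The cause was not tested.

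The labels give both genotypes replicates 1 and 2 with no statement that the numbers pair the plants. Over 19044 loci the differences between replicates correlated at -0.13 between the genotypes. With a replicate block, 0 loci and 0 of the 8 members had an adjusted p under 0.05, 2067 loci and 2 members an unadjusted one of at most 0.05. With crossed numbers, added after seeing the data, 921 loci had an adjusted p under 0.05.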
